A study of Mus musculus with 24 samples.

Results

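Glo1, Btbd9, Dnah8 and Glp1r lie side by side on mouse chromosome 17, where some mouse strains carry extra copies of a segment. The ends of that segment, and how much of each gene it takes in, were not determined here. The RNA and ribosome-protected fragments (RPFs) of the 4 genes were followed in hippocampal slices of wild-type (WT) and Tsc2+/- mice. The 4 genes were taken by name, as the row of each gene in both count tables, out of 23845 genes in the RNA table and 20436 in the RPF table. They were picked because the transcripts of Glo1 had differed between the genotypes in these same libraries, so all values that compare the genotypes for these genes are a description and carry no test. Gene copy number was not measured in these samples. The ratio of Tsc2+/- to WT was therefore set beside 1.5, the ratio of 3 gene copies to 2, and beside 2, the ratio of 4 copies to 2, as reference values only.

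Slices came from male mice aged 28 to 42 days that were WT or lacked one copy of Tsc2 throughout the body (Tsc2+/-), and they were exposed to vehicle alone or to DHPG, which activates group I metabotropic glutamate receptors, for 5 min (DHPG at 100 µM). The Tsc2 allele had been made with a Cre driver active in the germ line and bred to C57BL/6J, and WT littermates served as controls. Each of the 4 combinations of genotype and treatment had 3 RNA-seq libraries and 3 ribosome profiling libraries, and each library held pooled slices of several mice from which CA3 had been cut off. Since Tsc2 lies on chromosome 17 as well, sequence linked to the altered allele travels with the genotype, and an effect of such sequence and one of reduced Tsc2 cannot be told apart in these groups.

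Glo1 encodes glyoxalase 1, which together with glyoxalase 2 (Hagh) and glutathione turns methylglyoxal, a reactive by-product of glycolysis, into lactate. In mice, the amount of Glo1 has been studied in relation to anxiety-like behaviour, and it is known to rise with the number of copies of its gene. Btbd9 encodes a BTB domain protein linked to the cullin-3 ubiquitin ligase and, by human genetics, to restless legs syndrome. Dnah8 is a heavy chain of the outer arm of axonemal dynein, the motor of motile cilia and of the sperm tail, and Glp1r is the receptor for glucagon-like peptide-1, a G protein-coupled receptor that raises cyclic AMP.

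On GRCm38.p6, the same assembly as mm10, the genes occupied 721 kb in the order Btbd9, Glo1, Dnah8 and Glp1r. Btbd9 spanned 30215524 to 30582621 on the minus strand, and Glo1 followed after a gap of 10.2 kb at 30592861 to 30612659, on the minus strand too. Dnah8 lay 14.3 kb further on at 30626935 to 30875762 on the plus strand, and Glp1r another 26.1 kb on at 30901867 to 30936510 on the plus strand. No pair of the 4 genes overlapped. Their near ends were 5.58 to 6.27 Mb from the end of Tsc2. The genes differed much in build. The coding sequence of Glo1 had 184 codons in a transcript of 1940 nt with 6 exons, that of Btbd9 612 codons in 6857 nt with 11 exons, that of Dnah8 4731 codons in 14583 nt with 93 exons, and that of Glp1r 463 codons in 1480 nt with 13 exons. RNA was counted over whole transcripts and RPFs over coding sequence without 30 nt at each end, so the RPF counts of Glo1 came from 495 nt and those of Btbd9 from 1779 nt. Btbd9 had 8 annotated transcripts, and 2 predicted ones ended early, at 30471621 and 30508303, with coding sequences of 1188 and 1158 nt in place of 1839 nt.

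The promoter windows of the members are shown to set the sequence at the start of Glo1, the gene with the largest number of counts per kb, beside that of its neighbours. RefSeq promoter windows (GRCm38.p6, 250 bases before to 50 bases after the start of the gene, 5′ to 3′ on the strand of the gene) were matched for 3 of the 4 genes, all but Btbd9. Capitals mark the letters CCAAT and GGGCGG, read on both strands.
Glo1 (chr17:30612610-30612909, minus strand): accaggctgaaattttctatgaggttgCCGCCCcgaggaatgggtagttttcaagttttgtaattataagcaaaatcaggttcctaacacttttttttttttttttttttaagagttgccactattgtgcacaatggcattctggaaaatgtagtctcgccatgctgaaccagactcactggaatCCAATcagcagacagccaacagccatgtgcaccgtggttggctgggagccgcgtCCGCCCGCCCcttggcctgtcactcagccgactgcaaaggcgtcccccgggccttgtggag
Dnah8 (chr17:30626686-30626985, plus strand): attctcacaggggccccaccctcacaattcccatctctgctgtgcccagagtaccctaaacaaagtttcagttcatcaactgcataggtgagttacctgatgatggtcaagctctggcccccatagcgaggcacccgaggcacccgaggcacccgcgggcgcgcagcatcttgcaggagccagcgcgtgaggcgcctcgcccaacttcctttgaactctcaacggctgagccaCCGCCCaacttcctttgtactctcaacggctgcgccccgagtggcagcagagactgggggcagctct
Glp1r (chr17:30901617-30901916, plus strand): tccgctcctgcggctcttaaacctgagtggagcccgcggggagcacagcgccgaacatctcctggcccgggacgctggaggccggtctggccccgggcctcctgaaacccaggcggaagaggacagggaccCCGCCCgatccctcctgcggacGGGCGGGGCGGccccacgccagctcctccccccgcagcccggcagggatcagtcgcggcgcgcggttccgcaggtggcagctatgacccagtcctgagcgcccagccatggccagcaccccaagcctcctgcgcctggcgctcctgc
The Glo1 window had a GC content of 49.7% and 11 CpG dinucleotides, that of Dnah8 60.3% and 16, and that of Glp1r 73.7% and 29, against medians of 52.7% and 7 over 32851 promoter windows. GGGCGG matched 3 times in the Glo1 window, 1 time in that of Dnah8 and 3 times in that of Glp1r, with matches that overlap each other in Glo1 and Glp1r, and was held by 35.7% of all windows. CCAAT occurred 1 time in the Glo1 window and not in the others (37.4% of all windows). TATAAA (13.6% of all windows) and the antioxidant response core TGACNNNGC (12.4%) were in none of the 3.

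RNA libraries held 14801679 to 24067838 counts and RPF libraries 5296006 to 13613673 counts. Tsc2 RNA was 0.671-fold in Tsc2+/- (95% interval 0.636 to 0.708) and its RPFs 0.608-fold (0.564 to 0.654), with no overlap of the genotypes, as the labels state. Among counts above 0, even numbers made up 97.9% to 98.5% in replicates 2 and 3 of the RPF libraries, against 48.2% to 49.0% in those of replicate 1 and 48.5% to 49.7% in RNA. The marker lists of neurons, CA1, glia, vessels, ependyma and choroid plexus were all detected, none of their genes was at 0 in every library, and their summed levels in Tsc2+/- were 0.885 to 1.16 times those in WT. The dentate granule cell list stood apart, at 0.662 times WT in RNA (24.8 to 41.2 CPM in WT and 16.8 to 26.0 CPM in Tsc2+/-) and 0.711 times in RPFs, and its part in the values below was not tested. In tissue of this kind, fewer cells of a type and less RNA per cell cannot be told apart. Glo1, Btbd9 and Dnah8 passed the filter on low counts in both assays, and Glp1r passed in neither, so it is given as counts.

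Glo1 RNA and RPFs were higher in Tsc2+/- than in WT slices by about the same factor, with and without DHPG. In RNA, WT vehicle libraries held 83.0, 75.1 and 83.3 CPM (counts scaled to library size and by the trimmed mean of M values), and WT DHPG libraries 82.9, 74.7 and 71.7 CPM. Tsc2+/- vehicle libraries held 118, 120 and 110 CPM, and Tsc2+/- DHPG libraries 119, 111 and 113 CPM. All 6 Tsc2+/- libraries lay above all 6 WT libraries, with a gap from 83.3 to 110 CPM between them. In RPFs, WT vehicle libraries held 199, 186 and 167 CPM, WT DHPG 174, 181 and 171 CPM, Tsc2+/- vehicle 262, 268 and 268 CPM, and Tsc2+/- DHPG 249, 261 and 249 CPM. Here as well, the genotypes were apart, with the highest WT library at 199 and the lowest Tsc2+/- library at 249 CPM. How many of all genes kept the genotypes apart was not counted, so these gaps are description only. The group means of RNA were 80.5 ± 4.68, 76.4 ± 5.79, 116 ± 5.02 and 114 ± 3.83 CPM in the same order (SD, n = 3 each), and those of RPFs 184 ± 15.7, 175 ± 4.73, 266 ± 3.11 and 253 ± 7.26 CPM.

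**Figure D1:**
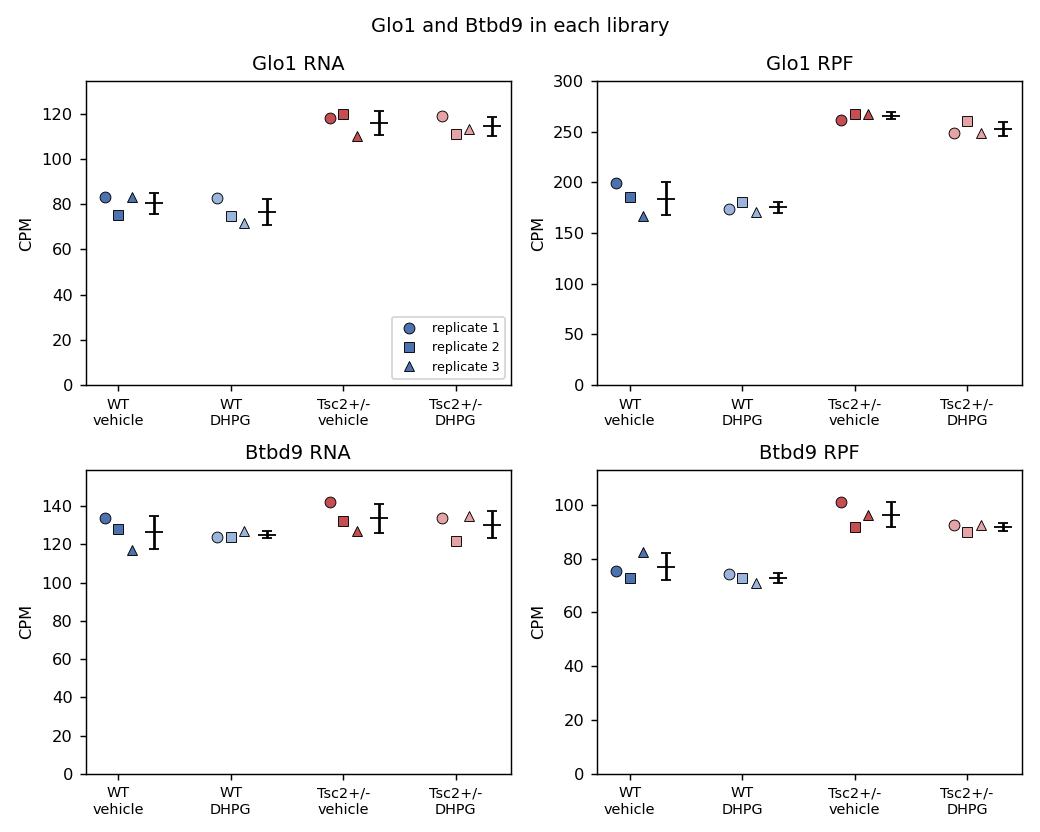
CPM of Glo1 (top) and Btbd9 (bottom) in RNA (left) and RPF (right) libraries of the 4 groups, each symbol being 1 library (shape by replicate number) and the bars to the right of them the mean ± SD of 3 libraries. Glo1 sits higher in every Tsc2+/- library in both assays, whereas Btbd9 does so in RPFs (90.1 to 101 against 70.9 to 82.6 CPM) but not in RNA (122 to 142 against 117 to 134 CPM).

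Averaged over treatments, the Tsc2+/- to WT ratio of Glo1 was 1.47 in RNA (95% interval 1.38 to 1.56, log2 fold change 0.56, SE 0.0439) and 1.44 in RPFs (1.36 to 1.54, log2 fold change 0.53, SE 0.0436). With vehicle it was 1.44 in RNA (1.32 to 1.57) and 1.45 in RPFs (1.32 to 1.58), and with DHPG 1.5 (1.37 to 1.63) and 1.44 (1.32 to 1.57). Each of these 6 intervals held 1.5, and none of them held 1 or 2. Between libraries with the same replicate number and treatment, the ratio ranged from 1.33 to 1.60 in RNA (mean 1.47 ± 0.102, SD, 6 pairs) and from 1.32 to 1.60 in RPFs (1.45 ± 0.0883). Of all tested genes, 0.958% had a higher averaged fold than Glo1 in RNA and 0.73% in RPFs. Genes were called at an adjusted p under 0.1 in the edgeR quasi-likelihood test, and the share of all genes called by genotype was 0.0896% in RNA with vehicle, 0.0482% with DHPG and 0.227% averaged over treatments. In RPFs these shares were 0.0233%, 0.0155% and 0.0621%. Glo1 was among the called genes in all 6 comparisons, from which nothing can be read, since it was picked on this contrast.

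Btbd9, the gene next to Glo1, had more footprints in Tsc2+/- slices, whereas its RNA differed little. In RNA, WT libraries held 134, 128 and 117 CPM with vehicle and 124, 124 and 127 CPM with DHPG. Tsc2+/- libraries held 142, 132 and 127 CPM with vehicle and 134, 122 and 135 CPM with DHPG. The genotypes overlapped: 5 of the 6 WT libraries reached the lowest Tsc2+/- library, and 3 of the 6 Tsc2+/- libraries were within the WT range. In RPFs, WT libraries had 75.5, 73.0 and 82.6 CPM with vehicle and 74.5, 73.0 and 70.9 CPM with DHPG. Tsc2+/- libraries had 101, 91.8 and 96.3 CPM with vehicle and 92.7, 90.1 and 92.5 CPM with DHPG. Here all 6 Tsc2+/- libraries were above all 6 WT libraries, though the share of all genes set apart in the same way was not counted. The counts behind these RPF values ran from 434 to 1051 per library, and those behind the RNA values from 1867 to 3110.

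The averaged Tsc2+/- to WT ratio of Btbd9 was 1.05 in RNA (95% interval 0.992 to 1.11, log2 fold change 0.07, SE 0.0417), and the interval held 1 but not 1.5. In RPFs the ratio was 1.26 (1.17 to 1.36, log2 fold change 0.33, SE 0.0536), which lay above 1 and below 1.5 with its whole interval. The RPF ratio was 1.26 (1.13 to 1.40) with vehicle and 1.26 (1.13 to 1.40) with DHPG. Same-numbered libraries gave RPF ratios of 1.17 to 1.34 in 6 of 6 pairs and RNA ratios of 0.986 to 1.09, above 1 in 5 of 6 pairs. Btbd9 was called in the averaged RPF comparison, alongside Glo1, and this call was lost without replicate 2, where its log2 fold change was 0.34. In RNA, the interval of Btbd9 lay below 1.5 in each of the 3 comparisons (highest upper bound 1.15), and what this says of copy number was not tested.

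**Figure D2:**
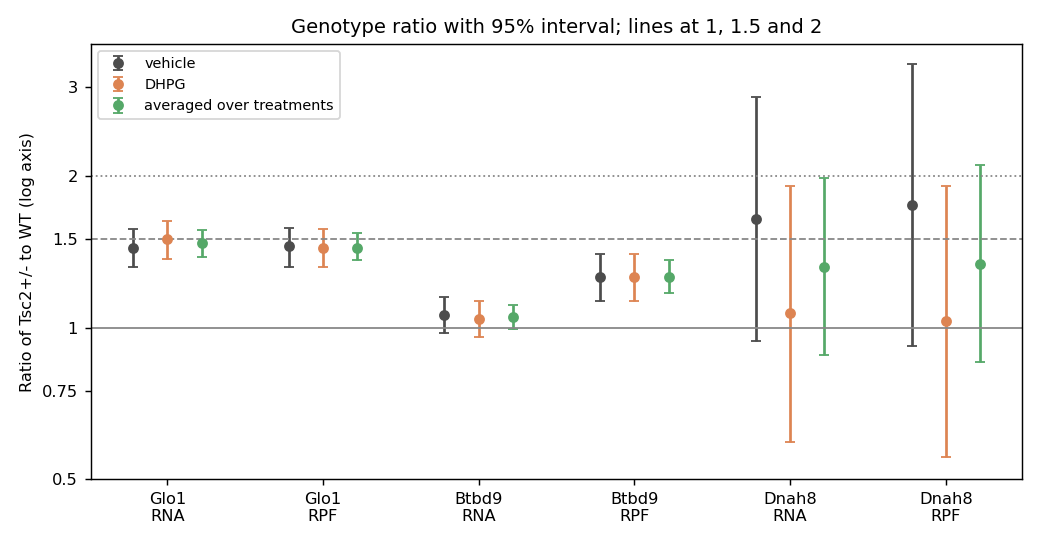
Ratio of Tsc2+/- to WT (log axis) of Glo1, Btbd9 and Dnah8 in RNA and RPFs, with vehicle, with DHPG and averaged over both, where points are fitted ratios and bars 95% intervals from 12 libraries per assay. Lines mark ratios of 1, 1.5 and 2: the intervals of Glo1 cross 1.5 only, those of Btbd9 RNA cross 1 only, those of Btbd9 RPFs cross none of the lines, and those of Dnah8 cross both 1 and 1.5, with 3 of the 6 crossing 2 as well.

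The difference between RPFs and RNA on the log2 scale is taken here as the change in translational efficiency (TE). RNA was counted over whole transcripts here, whereas the paper counted RNA and RPFs over coding sequence for its hippocampal TE. The levels below are therefore not on the paper's scale. Whether the genotypes differed in only part of a transcript was not tested. For Glo1 the TE ratio of Tsc2+/- to WT was 0.982 (95% interval 0.90 to 1.07), averaged over treatments. For Btbd9 it was 1.2 (1.09 to 1.32), with 1.19 (1.04 to 1.36) in vehicle and 1.21 (1.06 to 1.38) in DHPG. Of the 12785 genes tested for TE, 0 were called by genotype with vehicle, with DHPG or averaged, Btbd9 included. These intervals are per gene, so the Btbd9 ratios are description only. In same-numbered libraries, the log2 ratio of Btbd9 in RPFs exceeded that in RNA by 0.26 on average (SD 0.09, 0.10 to 0.34) and did so in 6 of 6 pairs, against a mean of -0.02 for Glo1 (SD 0.152, above 0 in 1 of 6 pairs). As a level, TE per length of counted sequence (RPF CPM per kb of counted coding sequence over RNA CPM per kb of transcript) of Btbd9 was 2.36 ± 0.305 in WT with vehicle and 2.25 ± 0.0934 with DHPG, and in Tsc2+/- 2.78 ± 0.123 with vehicle and 2.72 ± 0.113 with DHPG (SD, n = 3). The ranges of WT and Tsc2+/- overlapped, because WT vehicle replicate 3 stood at 2.71 while the other 5 WT libraries were at 2.14 to 2.33 and the Tsc2+/- libraries at 2.63 to 2.91. Glo1 had TE levels of 8.98 ± 0.973, 9.02 ± 0.684, 8.99 ± 0.432 and 8.69 ± 0.484 in the same order of groups. How the Btbd9 footprints were spread over its coding sequence, or over its shorter predicted transcripts, was not analysed here.

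Dnah8, the axonemal dynein gene, was close to the limit of detection and had no settled genotype ratio. In RNA WT libraries had 14, 36 and 32 counts with vehicle and 12, 30 and 25 with DHPG, and Tsc2+/- libraries had 57, 23 and 60 with vehicle and 14, 27 and 48 with DHPG. In RPFs WT libraries had 12, 10 and 4 counts with vehicle and 15, 12 and 20 with DHPG, and Tsc2+/- libraries had 25, 12 and 18 with vehicle and 17, 8 and 12 with DHPG. All RPF counts of replicates 2 and 3 were even here too, and whether they stand for fewer reads was not tested. Scaled for depth, the genotypes overlapped in RNA under both treatments and in RPFs under DHPG. They did not overlap in RPFs under vehicle, with 0.761 to 1.58 CPM in WT and 1.59 to 2.65 CPM in Tsc2+/-. With 3 libraries each and ranges that nearly touched, nothing is read from this, and how many of all genes were apart likewise was not counted. The averaged Tsc2+/- to WT ratio was 1.32 in RNA (95% interval 0.882 to 1.98) and 1.34 in RPFs (0.855 to 2.1). With vehicle it was 1.64 (0.94 to 2.87) and 1.75 (0.919 to 3.34), and with DHPG 1.07 (0.593 to 1.91) and 1.03 (0.553 to 1.91). All 6 intervals held 1 and 1.5, and those of RNA with vehicle, RPFs with vehicle and averaged RPFs also held 2, so these ratios could not be told apart at this depth. Single libraries moved the averaged RNA log2 fold change of 0.40 a good deal: it was 0.11 without Tsc2+/- vehicle replicate 1 and 0.68 without Tsc2+/- vehicle replicate 2. It was also 0.23 without Tsc2+/- DHPG replicate 3.

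Glp1r was at the edge of detection in every group. Its RNA counts in WT were 2, 0 and 1 with vehicle and 3, 0 and 2 with DHPG, and in Tsc2+/- 2, 0 and 5 with vehicle and 3, 1 and 0 with DHPG. RPF counts in WT were 2, 0 and 0 with vehicle and 3, 0 and 2 with DHPG, and in Tsc2+/- 2, 0 and 2 with vehicle and 1, 0 and 0 with DHPG. In all, 4 of 12 RNA libraries and 6 of 12 RPF libraries were at 0, and the genotypes overlapped throughout. Summed over 6 libraries each, there were 11 RNA counts in Tsc2+/- and 8 in WT, a depth-scaled ratio of 1.2 with an exact 95% counting interval of 0.438 to 3.42. For RPFs the sums were 5 and 7, with a ratio of 0.775 (0.194 to 2.84). Both intervals held 1, 1.5 and 2, so a difference of that size was not detectable at this depth. The intervals cover counting error only and are too narrow if the even RPF counts of replicates 2 and 3 stand for fewer reads, which was not tested.

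**Figure D3:**
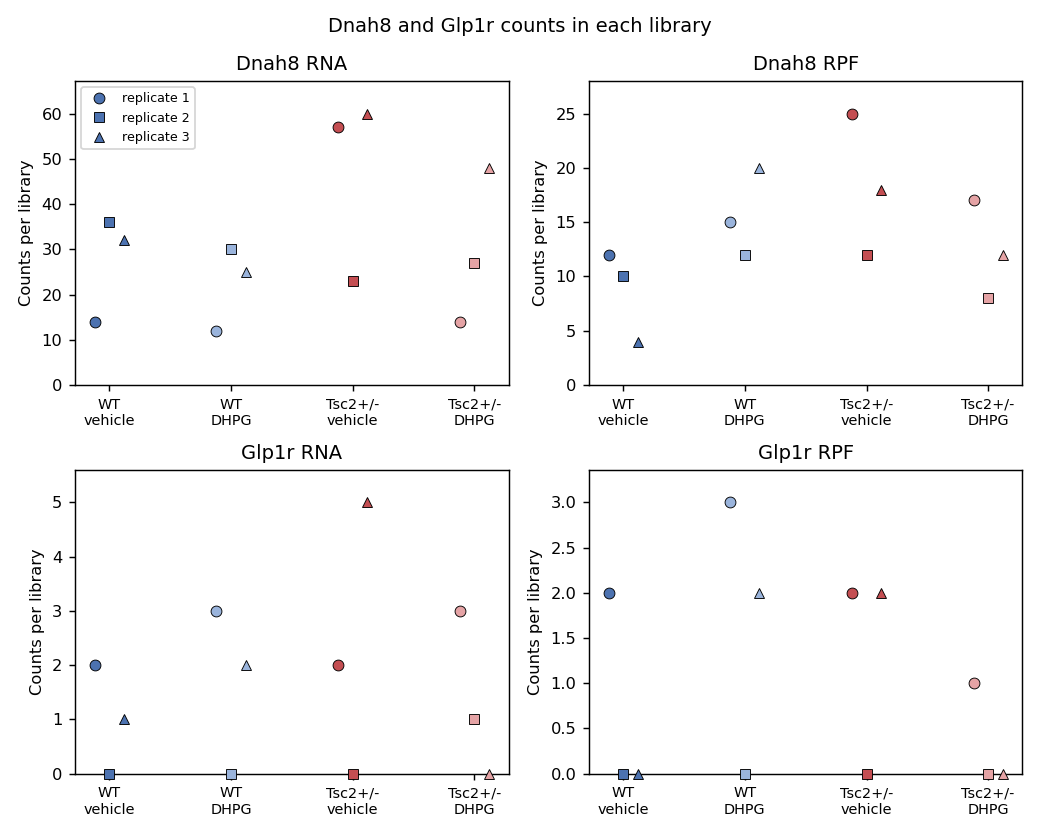
Counts per library, not scaled for depth, of Dnah8 (top) and Glp1r (bottom) in RNA (left) and RPF (right) libraries of the 4 groups, each symbol being 1 library (shape by replicate number). Dnah8 has 4 to 60 counts and Glp1r 0 to 5, and the symbols of WT and Tsc2+/- mix in all panels.

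Per kb of counted sequence, the 4 genes kept a wide order in WT vehicle. In RNA, Glo1 had 41.5 ± 2.41 CPM per kb, Btbd9 18.4 ± 1.21, Dnah8 0.0914 ± 0.0235 and Glp1r 0.0414 ± 0.046 (SD, n = 3). In RPFs the order was the same, with 371 ± 31.7, 43.3 ± 2.78, 0.0849 ± 0.0293 and 0.066 ± 0.114 CPM per kb. Glo1, Btbd9 and Dnah8 were apart from each other in every library, whereas Dnah8 and Glp1r overlapped in both assays.

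The treatment did not enter the choice of the genes, so the effect of DHPG was tested. None of the 3 genes that could be tested was called for DHPG in RNA, RPFs or TE. Since few of all genes were called (shares below), this does not show a lack of response. For each assay, 12 tests were made, on DHPG against vehicle in WT, in Tsc2+/- and averaged over genotypes and on the interaction of DHPG and genotype. None was called (RNA adjusted p 0.743 to 1, RPF 0.788 to 1, TE 0.841 to 0.999, edgeR quasi-likelihood test), and none had an unadjusted p under 0.05. The smallest unadjusted p was 0.0597, for Dnah8 RNA in Tsc2+/- (log2 fold change -0.76, SE 0.391). The share of all genes called for DHPG in RNA was 0% in WT, 0% in Tsc2+/-, 0.0207% averaged and 0% for the interaction. In RPFs the shares were 0.0311%, 0%, 0.0311% and 0%, and in TE 0.0469%, 0%, 0.0469% and 0%. Where 0 genes were called, 472 to 936 of the 12785 to 14516 genes tested had an unadjusted p under 0.05. A share of 0.05 is what no effect at all would give. Only RNA in WT, with 936 of 14516 genes, was above that share.

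For Glo1, averaged over genotypes, the ratio of DHPG to vehicle was 0.965 in RNA (95% interval 0.908 to 1.03) and 0.952 in RPFs (0.895 to 1.01). Same-numbered libraries gave DHPG to vehicle ratios of 0.861 to 1.02 in RNA and 0.877 to 1.02 in RPFs for Glo1. For Btbd9 the ratio was 0.983 in RNA (0.927 to 1.04) and 0.950 in RPFs (0.881 to 1.02). For Dnah8 it was 0.733 in RNA (0.49 to 1.1) and 0.986 in RPFs (0.623 to 1.56). The genotype ratio itself differed between DHPG and vehicle by a factor of 1.04 for Glo1 RNA (0.917 to 1.17), 0.998 for Glo1 RPFs (0.883 to 1.13), 0.984 for Btbd9 RNA (0.876 to 1.11) and 1.0 for Btbd9 RPFs (0.861 to 1.17). For Glp1r, the mean of 6 DHPG libraries was 0.0789 CPM and that of 6 vehicle libraries 0.0847 CPM in RNA (two-sided exact permutation test, p = 0.9 over 924 arrangements), and 0.0992 and 0.125 CPM in RPFs (p = 0.74 in the same exact permutation test). Unlike the fits, this permutation took no account of replicate number or genotype. Per the study's methods the replicates were biological, each a pool of slices from several mice, so these p-values measure the spread between pools and not that between single mice.

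The genes around the 4 members, which were not picked on their own values, showed whether the difference extended beyond them. Within 1 Mb of the outer ends of Btbd9 and Glp1r, the tables held 35 other genes, of which 23 were tested in RNA and 21 in RPFs. The pseudogene Gm6402 and the long non-coding RNA 1700097N02Rik, the 2 genes lying between those ends, had too few counts to be tested. Averaged over treatments, 1 neighbour was higher in Tsc2+/- RNA and 1 lower, and none of the 21 was called in RPFs. That made 2 of 23 called in RNA, where 33 of all 14516 genes tested (0.227%) were called. In RPFs 0.0621% of all genes were called. The higher one was Mdga1, an adhesion molecule of synapses 327 kb before Btbd9, with a log2 fold change of 0.20 (SE 0.0413, edgeR adjusted p 0.0179). The lower one was Ppil1, a splicing-associated prolyl isomerase 952 kb before Btbd9, with -0.52 (SE 0.0979, edgeR adjusted p 0.00465), and in RPFs its value was 0.09 (SE 0.124). Without replicate 2 or without replicate 3, 0 neighbours were called, and without replicate 1, WT DHPG replicate 2 or Tsc2+/- DHPG replicate 2, 1 was. With vehicle 1 of 23 neighbours was called, lower, against 0.0896% of all genes, and in 13 of the 15 fits that left out libraries the count was 0. With DHPG 0 were called in RNA.

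The genes that flank the segment most closely had log2 fold changes between -0.19 and -0.03. Zfand3, a zinc finger gene 5 kb before Btbd9, had a log2 fold change of -0.03 in RNA (SE 0.0413) and -0.09 in RPFs (SE 0.0712). On the other side, Umodl1 (18 kb after Glp1r) had -0.19 in RNA (SE 0.271), and Abcg1, a sterol transporter at 121 kb, had -0.08 (SE 0.0434) in RNA and -0.15 (SE 0.0555) in RPFs. The 23 neighbours had a median of -0.02 in RNA (range -0.52 to 0.40) and the 21 in RPFs a median of -0.05 (-0.26 to 0.19), against 0 for all genes tested in each assay. Only 9 of the 23 and 8 of the 21 were above 0. Over the 8 Mb on each side of Glo1 that the plot of chromosome 17 covers, 10 of 322 genes (3.11%) were called in RNA and 3 of 277 (1.08%) in RPFs, against 0.162% and 0.0397% of the genes elsewhere in the genome. The 3 RPF calls were Tsc2, the altered gene, and the picked genes Glo1 and Btbd9, so the RPF share rests on these alone. In RNA, 8 of 318 genes (2.52%) were called when Tsc2 and the members were left out.

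**Figure D4:**
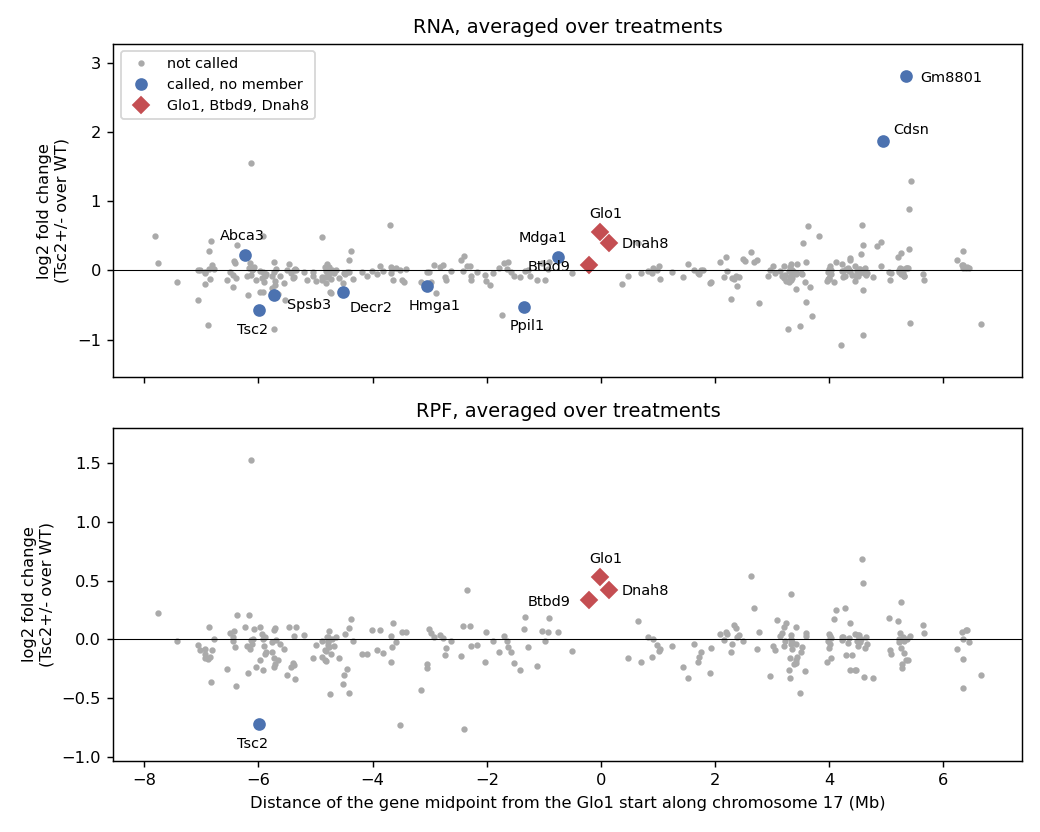
Log2 fold change of Tsc2+/- over WT, averaged over treatments, of each tested gene against the distance of its midpoint from the Glo1 start on chromosome 17 (Mb), in RNA (top) and RPFs (bottom). Diamonds are Glo1, Btbd9 and Dnah8, larger circles are other genes called at an adjusted p under 0.1 and small dots genes not called. Glo1 stands at 0.56 in RNA and 0.53 in RPFs beside Dnah8 at 0.40 and 0.42 and Btbd9 at 0.07 and 0.33, and Tsc2 at -0.58 and -0.72 about 6 Mb away.

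Partners of the 4 members in their pathways, on lists that do not include them, mostly gave no call between the genotypes. Only 0.0155% to 0.227% of all genes were called in these comparisons. For lists of this size, 0 calls therefore says nothing particular about their genes. Of 22 genes of the glyoxalase, methylglyoxal and glutathione list, 20 were tested in each assay and 0 were called in any genotype comparison, with median averaged log2 fold changes of -0.05 in RNA and -0.05 in RPFs. The smallest p-values were those of Akr1b8, an aldo-keto reductase of very low level, with -1.5 in RNA (SE 0.492, adjusted p 0.498) and of Haghl, a relative of glyoxalase 2, with -0.17 in RPFs (SE 0.0619, adjusted p 0.599). Hagh, glyoxalase 2 itself, had -0.11 in RPFs (SE 0.0505, adjusted p 0.726). Hagh and Haghl lie on chromosome 17 too, at -5.761 and -4.83 Mb from the Glo1 start, with Tsc2 at -5.998 Mb. Whether linkage to the altered allele plays a part in their values was not tested. Of the cullin-3 ligase and its BTB adaptors, 30 of 30 were tested and 0 were called (medians -0.03 in RNA and 0 in RPFs). The smallest p-values were those of Btbd3, a BTB domain protein, with -0.15 in RPFs (SE 0.0609, adjusted p 0.659) and of Kbtbd6, an adaptor of low level, with -0.85 in RPFs (SE 0.347, adjusted p 0.665).

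Of 23 genes for the GLP-1 ligand, its receptors and cyclic AMP signalling, 19 were tested in RNA and 17 in RPFs. Rapgef4, a guanine nucleotide exchange factor activated by cyclic AMP that lies on chromosome 2, was the 1 gene called (0.227% of all genes were), with an averaged RNA log2 fold change of 0.15 (SE 0.0346, edgeR adjusted p 0.0526). It was lost in 7 of the 15 fits that left out libraries, which were those without replicate 2, replicate 3, Tsc2+/- vehicle replicate 3, Tsc2+/- DHPG replicate 2, WT vehicle replicate 2, WT DHPG replicate 1 or WT DHPG replicate 2. Of 25 axonemal dyneins and motile cilium genes, 20 were tested in RNA and 17 in RPFs, and 0 were called. This list includes Rsph1, which is also among the neighbours counted above. Dnah9, another outer arm heavy chain, had 0.28 in RNA (SE 0.0746, adjusted p 0.163), and Dnal1, a light chain, 0.11 (SE 0.039, adjusted p 0.581). None of the genes on the 4 lists was called for DHPG in RNA or RPFs, where 0% to 0.0311% of all genes were.

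The genes whose levels were most like those of Glo1 over the libraries included others of chromosome 17. The likeness was Pearson's r of log2 CPM with Glo1 over the 12 RNA libraries, after the mean of each replicate number had been taken off. Glo1 was picked because it differed between the genotypes, and Tsc2 differs by design. Genes that differ by genotype therefore get an r far from 0 in advance, and the values are description only. The 5 highest of 14515 genes were Tagap (0.979), Ywhab (0.961), Tmem181b-ps (0.950), Arhgef6 (0.923) and 3110052M02Rik (0.912). Tagap, Tmem181b-ps and 3110052M02Rik lie on chromosome 17 too, at 7926000 to 7934897, 6439002 to 6450994 and 21650572 to 21664966. Their averaged genotype log2 fold changes in RNA were 2.04, 0.89 and 1.02. The 3 lowest were Tsc2 (-0.995), Slfn5 (-0.927) and Tcap (-0.918). Tsc2 was also opposite to Glo1 over the 12 RPF libraries (r = -0.967), whereas Ywhab was not alike in RPFs (r = -0.0365). Btbd9 had r = 0.494 with Glo1 in RNA, rank 1096, and 0.929 in RPFs. Dnah8 had 0.254 in RNA and 0.536 in RPFs.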

How the data were processed

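RNA-seq and ribosome profiling of hippocampal slices were analysed in 24 libraries, in 8 groups of 3 taken from the labels. Per the study's methods, the authors trimmed reads, removed rRNA and tRNA matches, mapped to mm10, kept unique reads and removed duplicates by molecular identifiers. The tables that the authors deposited give RSEM's expected counts for each gene as whole numbers. No column was left without a sample. Genes passing filterByExpr at a minimum count of 10 were fitted with the edgeR 4.0.16 quasi-likelihood model in R 4.3.3 (TMM scaling, robust, group and replicate number as terms, since the study corrected for batch), on 12 libraries per assay: 14516 RNA and 12877 RPF genes. TE was the interaction of assay and group over 24 libraries for 12785 genes. P-values were two-sided and adjusted by Benjamini-Hochberg over all genes, with calls at an adjusted p under 0.1. The procedure was also run on simulated counts with the same spread for all genes, no replicate effect and changes only in well-counted genes. That run says nothing on Dnah8, Glp1r or the even RPF counts. Intervals are 95%, per gene, and those of summed counts are exact conditional binomial intervals. Positions came from RefSeq GRCm38.p6. The 4 genes and the lists were chosen with earlier results of these data known. Apart from the 4 genes and Tsc2, named genes were called neighbours within 1 Mb and the closest flanking ones, called list genes or otherwise the 2 with the smallest p of the averaged genotype comparisons per list, and the 5 most and 3 least like Glo1. Flanking genes and Hagh were named after their values were seen. The alternatives comprised no replicate term, DESeq2 (1.42.0) with and without ComBat (sva 3.50.0) before it, other scalings, no filter, halved RPF counts of replicates 2 and 3, only the groups compared, an adjusted p under 0.05, and fits with 1 replicate number or 1 library left out.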

Additional observations from a re-analysis of the deposited data

How the results depend on the processing

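The averaged log2 fold change of Glo1 stayed within 0.52 to 0.59 in RNA and 0.50 to 0.57 in RPFs over all alternatives, and that of Btbd9 within 0.05 to 0.10 and 0.31 to 0.36. With vehicle, Btbd9 RNA went from 0.03 without WT vehicle replicate 3 to 0.12 without WT vehicle replicate 2. Dnah8 ranged from 0.11 to 0.80 in RNA and from 0.21 to 0.65 in RPFs, and in DHPG from -0.39 to 0.53 and from -0.45 to 0.55. Of 572 alternative values of DHPG effects on the members, 63 changed sign and 0 were called (lowest adjusted p 0.374).

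Samples with the same replicate number deviated together only weakly (r 0.0228 to 0.143 in RNA and 0.033 to 0.263 in RPFs over 18 pairs, where different numbers gave -0.126 to 0.024 and -0.194 to 0.0667), though each of the 12 libraries of an assay correlated best with its own number. Without the replicate block, 16 in place of 33 RNA genes were called by genotype on average, and neighbours called in RNA went from 2 to 1 averaged and from 1 to 0 in vehicle, list genes from 1 to 0. ComBat followed by DESeq2 called 0 neighbours in RNA with vehicle and 1 in averaged RPFs, and 2 list genes in RNA with vehicle, 4 in averaged RNA and 1 in RPFs with vehicle. With only the groups compared, 0 neighbours were called in RNA with vehicle. Without the filter, 2 members were called in RPFs with vehicle in place of 1, and 2 list genes in averaged RNA. DESeq2 gave some members no adjusted p, and those counts were not formed. Leaving out libraries gave 0 to 2 neighbours and 0 to 1 list genes in averaged RNA, 0 to 1 neighbours in RNA with vehicle, and 1 to 2 members in RPFs, averaged or with DHPG. The counts of members called by genotype are description only, since the members were picked on that contrast.

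Over all alternatives, genes called by genotype in RNA numbered 6 to 127 in vehicle (13 as reported), 4 to 43 in DHPG (7) and 16 to 137 averaged (33), and in RPFs 2 to 57 (3), 2 to 47 (2) and 3 to 69 (8). For DHPG the counts were 0 to 350 in WT RNA (0), 0 to 2 in Tsc2+/- RNA (0), 0 to 417 averaged (3), 1 to 55 (4), 0 to 7 (0) and 0 to 95 (4) in RPFs, and 0 to 61 (6), 0 (0) and 0 to 1 (6) in TE, and for interactions 0 to 2, 0 to 3 and 0 to 1. The highest counts were mostly those of ComBat followed by DESeq2. Depth limits Dnah8 and Glp1r.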
